A study of Mus musculus with 18 samples.

Results

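Reloaded gastrocnemius, the large calf muscle, was compared with muscle that had never been unloaded, in mice with an intact Zfp697 gene. The comparison used 6 of the series' 18 libraries: 3 titled flox/flox with 3 days of reloading and 3 titled flox/flox control. A further 3 flox/flox libraries, taken after 10 days of unloading, served to find the genes that disuse had displaced. Each gene could then be described as back at baseline, past it, still displaced, or called after reloading alone.

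A calf muscle that bears no weight shrinks, and the genes for its matrix and its oxidative enzymes are among those known to fall. When weight returns, the weakened fibres are strained, and the days after are known for membrane and sarcomere repair, entry of macrophages, division of precursor cells and rebuilding of the matrix. Collagens form the fibrils between fibres, the basement membrane wraps each fibre, and mitochondria supply the energy for sustained contraction.

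All mice were female C57BL/6. The flox/flox animals carry loxP sites around Zfp697 and no deletion by the labels, and every flox group shares that allele. The Cre driver of the knockout line, the ages of the mice and the length of unloading before the 3 days of reloading are not given in the labels. Whether each library is a different mouse is not stated either. The p-values therefore speak only of the spread among these samples, which may be technical. Polyadenylated RNA was sequenced, with total counts of 45069595 to 50131547 in the 9 flox libraries.

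The tissue label was checked against muscle fibre genes. Of 14 such genes all were detected, and they summed to 187399 to 202395 CPM in the controls, 174262 to 194320.0 CPM after unloading and 154637 to 177298 CPM after reloading. CPM is the read count relative to library size, here scaled by TMM, a method that equalises most genes between libraries. The TMM factor was 1.06 to 1.09 in the reloaded libraries against 0.975 to 0.984 in the controls, and the mitochondrially encoded share of counts was 8.26% to 8.53% against 10.3% to 11.9%. Scaling by total counts alone raised the median change of all genes by 0.15 log2, and it is named below where it alters a count. Zfp697, the targeted zinc finger gene, stood at 1, 0.984 and 1.6 CPM in the controls, 1.58, 1.74 and 1.61 CPM after unloading and 2.79, 2.33 and 2.57 CPM after reloading. Its reloaded values lay above all others. Against control the rise was 1.10 ± 0.26 log2 (SE throughout; adjusted p = 0.00429).

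Muscle 3 days after reloading was far from baseline. Of 17833 tested genes 4035 (22.6%) differed between reloaded and control muscle, 2193 higher (12.3%) and 1842 lower (10.3%), at a Benjamini-Hochberg adjusted p under 0.05 in edgeR's quasi-likelihood test. Many of these changes were small: 2006 of the called genes differed by under 1.5-fold, whereas 742 were over 2-fold higher and 205 over 2-fold lower. After unloading, by comparison, 1024 genes (5.74%) were displaced from control, 477 higher (2.67%) and 547 lower (3.07%). With total counts as the scale the reloading calls were 3652 higher and 887 lower, so 80.5% of called genes were higher in place of 54.3%. Another 6489 genes were called in neither comparison and had a 95% interval of the reloading change inside 1.5-fold of control.

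The 1024 displaced genes were sorted by where they stood after reloading. A gene counted as back at baseline when it had moved back from the unloaded level by the test, no longer differed from control by the test, and had a 95% interval within 1.5-fold of control. An overshoot was a call on the other side of control, and a gene stayed displaced when it was still called on the same side. By these rules 365 genes (35.6%) were back at baseline, 187 (18.3%) overshot, 205 (20%) stayed displaced and 267 (26.1%) could not be placed. Of the genes that unloading had raised 44.9% were back at baseline and 13.2% stayed high, whereas of those it had lowered 27.6% were back and 26.0% stayed low. Overshoot took in 20.5% of the raised and 16.3% of the lowered genes. The difference between raised and lowered genes was not tested. Between reloaded and unloaded muscle, the comparison that decides a return, 5692 genes (31.9%) differed. Among the 205 that stayed displaced, 178 showed no further change by the test, 9 had partly returned and 18 had moved further out. The unloading and reloading comparisons share the 3 control libraries, so the position of those libraries enters both changes of every gene.

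**Figure D1:**
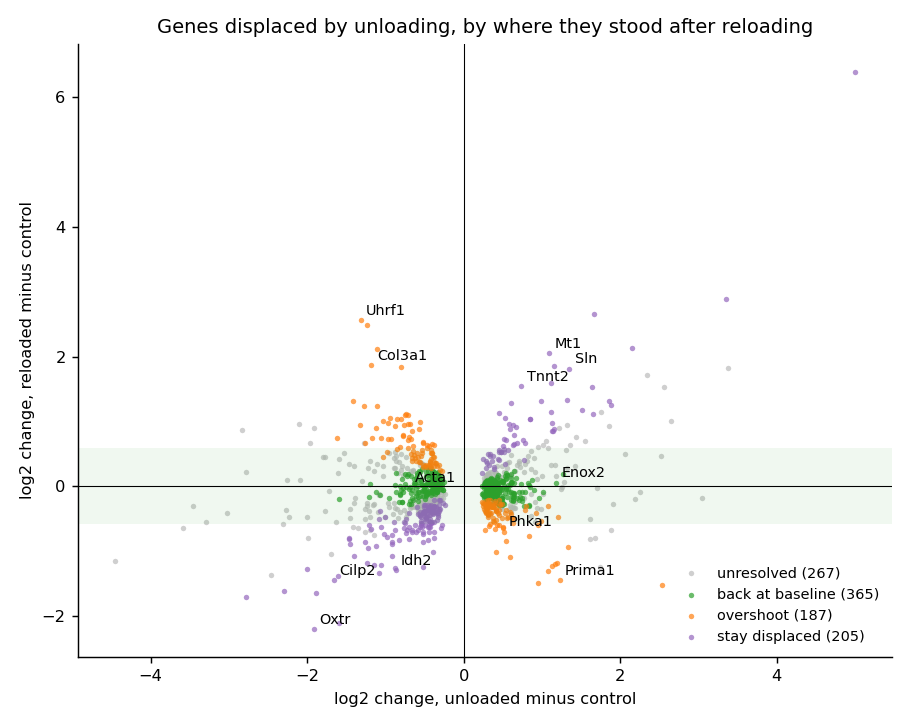
Fitted log2 change after unloading (horizontal axis) and after reloading (vertical axis), both against control, for each of the 1024 genes displaced by unloading. Colours give the 4 outcomes; the shaded band marks 1.5-fold of control. Genes that overshot lie in the upper left and lower right, and those that stayed displaced in the lower left and upper right.

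The number of genes in each class depended on single libraries. Without control replicate 1 the classes held 148 back, 70 overshooting, 107 staying and 109 unplaced genes, and without control replicate 2 they held 144, 71, 88 and 113. Leaving out unloading replicate 1 gave 125, 83, 82 and 74. Without unloading replicate 3 there were 238 back, 128 staying and 155 unplaced, and overshoot fell to 115 without control replicate 3 and 116 without reloading replicate 2. In none of these settings, nor under another scaling, filter, tool or block, did a gene pass from overshoot to staying displaced or the reverse. Such a switch needs a call on the opposite side in largely the same data, so its absence does not show stable classes. Without control replicate 1, for example, 129 of the 365 genes back at baseline kept their class. The same held for 68 of the 187 that overshot and 93 of the 205 that stayed displaced.

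Several genes returned from large displacements. Enox2, a cell-surface NADH oxidase gene, stood at 9.35, 12.4 and 14 CPM in the controls, 30.1, 23.3 and 27.6 CPM after unloading and 9.22, 15.1 and 12.8 CPM after reloading. The control and reloaded ranges overlapped, and the reloading change of 0.05 ± 0.17 log2 had a 95% interval of -0.30 to 0.41. Acta1, which encodes the actin of skeletal muscle thin filaments, held 32863, 32209 and 23724 CPM in the controls, 13829, 19006 and 22199.8 CPM after unloading and 27635, 29306 and 31039.6 CPM after reloading. Its change was -0.69 ± 0.19 log2 at unloading and -0.01 ± 0.19 at reloading. Among lowered genes Hist1h2be, a histone gene with close copies whose counts are uncertain, went from 12.7, 11.9 and 12.1 CPM to 3.77, 4.84 and 3.49 CPM and back to 8.38, 12.2 and 11.4 CPM. Dnm3, a dynamin, was raised by 0.96 ± 0.16 log2 at unloading and stood at -0.18 ± 0.16 after reloading. Ssc5d, a scavenger receptor family gene, was -1.20 ± 0.16 and then 0.04 ± 0.15.

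Further genes back at baseline came from several lists. Of 23 calcium store and excitation genes 4 had been raised by unloading, and 3 of these were back: Clcn1, the muscle chloride channel, at -0.22 ± 0.08 log2 after reloading, Cacng1, a calcium channel subunit, at 0.17 ± 0.09, and Kcnc4, a potassium channel, at 0.08. Among all genes raised by unloading 44.9% were back at baseline. The calcium list as a whole did not sit at baseline: 7 of the 23 were lower than control and 2 higher. Its summed level was 48322 to 52890.0 CPM in the controls and 33152 to 41179 CPM after reloading. The lower count was 3 with total counts or without reloading replicate 1, and 4 without control replicate 2. Of 19 growth signalling genes 4 had been displaced, with 1 each back, overshooting, staying and unplaced. Igf1r, the receptor of insulin-like growth factor 1, was the member back at baseline, raised by 0.56 ± 0.11 and then at 0.17 ± 0.11. The transcription factor gene Rora, the ribosomal protein gene Rpl4 and the prolyl hydroxylase gene P4ha1 were back as well, at -0.22, 0.07 and 0.00. Some of the largest unloading changes could not be placed because their intervals were too wide. Slc2a3, a glucose transporter, was 1.91 ± 0.17 at unloading and -0.28 ± 0.18 at reloading, with a 95% interval of -0.66 to 0.10. Fkbp5, a glucocorticoid-responsive chaperone, was 2.19 ± 0.29 and then -0.19 ± 0.28, with an interval of -0.79 to 0.40.

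**Figure D2:**
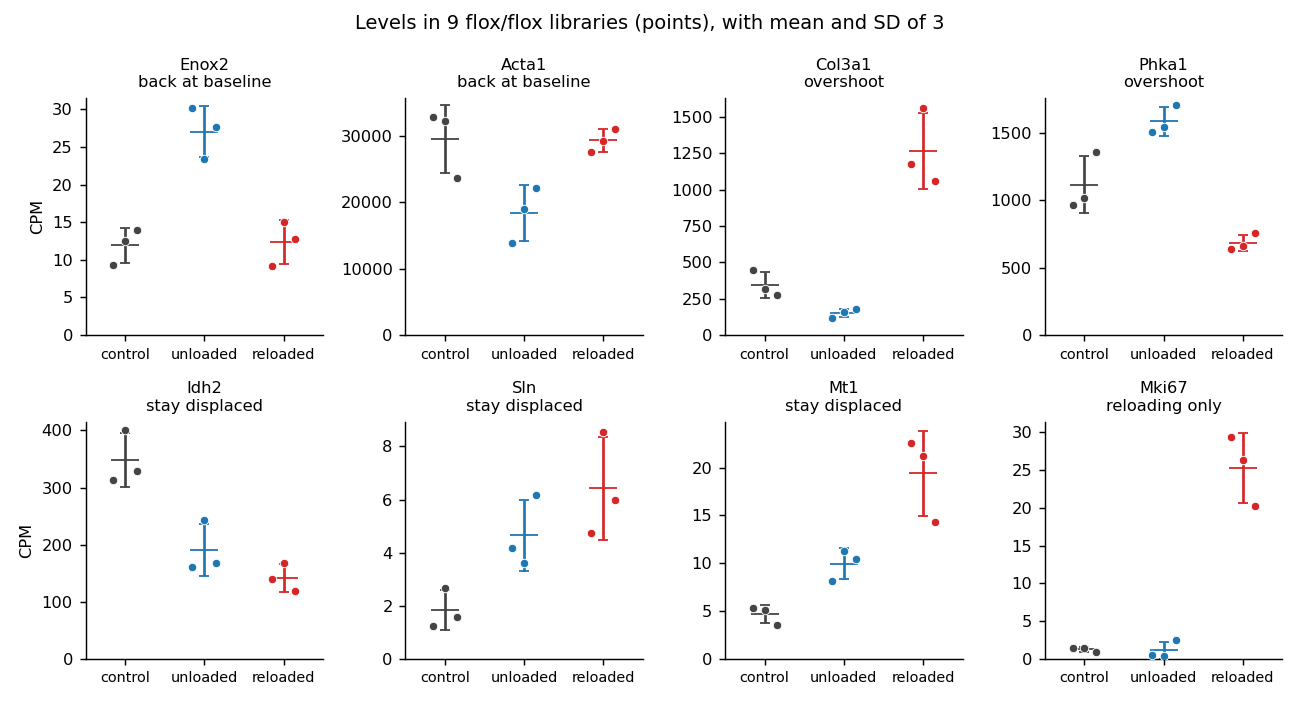
CPM of 8 genes in the 3 control, 3 unloaded and 3 reloaded flox/flox libraries (points), with the mean (horizontal bar) and SD (error bar) of each group. Enox2 and Acta1 overlap with the control range again after reloading, Col3a1 and Phka1 pass it, Idh2, Sln and Mt1 stay off it, and Mki67 is high after reloading.

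Many matrix genes overshot. Of 14 fibrillar and type VI collagen genes 8 had fallen at unloading. After reloading 5 of the 8 stood above control, 1 was back and 2 could not be placed. Among all genes lowered by unloading 16.3% overshot. In all 9 of the 14 were higher than control and 0 lower, with a median change of 0.66 log2 against 0.00 for all tested genes. Col3a1, a fibrillar collagen of pliant tissue, stood at 446, 317 and 277 CPM in the controls, 121, 162 and 176 CPM after unloading and 1179, 1559 and 1060.4 CPM after reloading. The 3 groups did not overlap. Col3a1 was -1.18 ± 0.25 log2 at unloading (adjusted p = 0.0115) and 1.87 ± 0.26 at reloading (adjusted p = 6.86e-05). Col6a3, a subunit of the microfibril collagen around fibres, went from 106, 113 and 93.4 CPM to 63.4, 62.6 and 63.6 CPM and on to 197, 260.4 and 209 CPM, again without overlap. Its reloading change was 1.09 ± 0.14 (adjusted p = 2.82e-05). Col5a1, Col6a1 and Col6a2 were the other members that overshot, at 1.04, 0.60 and 0.67.

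Not every collagen passed its baseline by the test. Col1a1, the main fibrillar collagen chain, held 378, 584 and 299 CPM in the controls, 84.5, 99.1 and 139 CPM after unloading and 501, 902 and 589.7 CPM after reloading. Control and reloaded values overlapped, and the change of 0.66 ± 0.30 (95% interval 0.03 to 1.29) did not pass (adjusted p = 0.124). Col1a2, its partner chain, was 0.42 ± 0.23 (adjusted p = 0.213). Col11a1, a minor fibrillar collagen, returned from -1.20 ± 0.21 to -0.17 ± 0.20. Leaving out single libraries kept the count of overshooting collagens within 1.5 times of 5. Dropping the low-count filter gave 10 and an adjusted p under 0.01 gave 3. Col6a2 lost its call without control replicate 3 or reloading replicate 2 (adjusted p up to 0.0771).

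**Figure D3:**
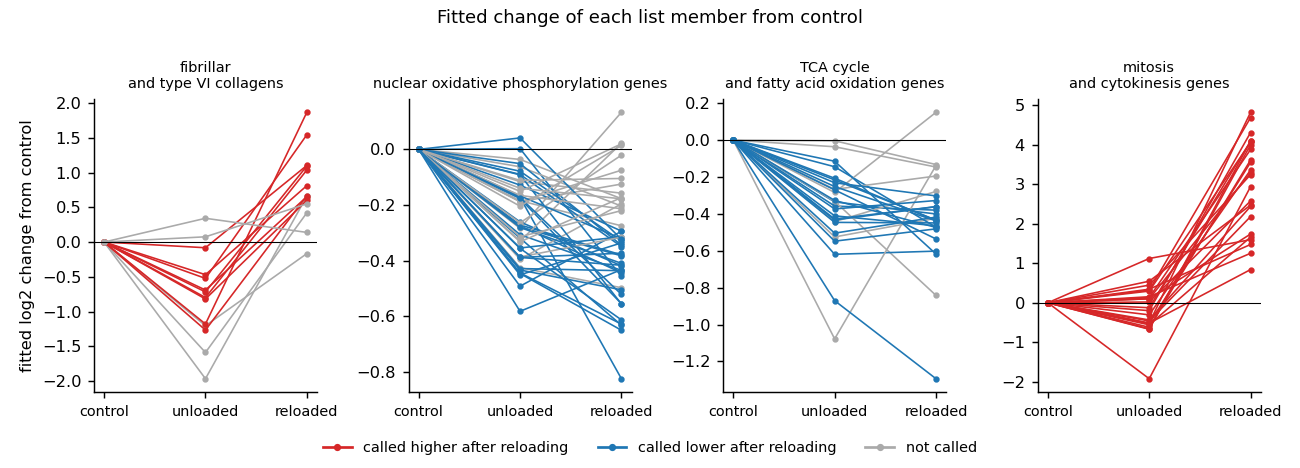
Fitted log2 change from control after unloading and after reloading for each member of 4 gene lists (lines), coloured by the call after reloading. Most collagens dip and then rise above control, most oxidative genes stay below it, and mitosis genes rise after reloading; the vertical scales differ between panels.

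Genes that wrap, bind and crosslink the matrix moved with the collagens. All 5 of the 16 basement membrane genes that had fallen at unloading overshot, and 9 of the 16 were higher than control and 0 lower. Col4a1, a chain of the basement membrane network, stood at 302, 197 and 164 CPM, then 119, 120.2 and 123 CPM, then 405, 495 and 361 CPM (0.93 ± 0.19 against control, adjusted p = 0.00173). Col18a1, Col15a1, Nid2 and Hspg2, at 0.79, 0.74, 0.63 and 0.38, made up the 5. Of 18 collagen maturation and crosslinking genes 9 had fallen, of which 6 overshot and 2 were back. Serpinh1, the collagen chaperone HSP47, went from 80.8, 92.2 and 66 CPM to 42.3, 49 and 40.8 CPM and then to 165, 187 and 138 CPM. Its reloaded libraries all lay above the controls, by 1.04 ± 0.15 log2 (adjusted p = 8.2e-05). In the matricellular list the 3 members that had fallen, Sparc, Mfap4 and Fn1, all overshot, at 0.53, 0.73 and 0.95.

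These class counts were small and leaned on single libraries. Overshoot among basement membrane genes was 2 without control replicate 1 and 3 without control replicate 2, unloading replicate 1, unloading replicate 3 or reloading replicate 2, and 3 with total counts. Among collagen maturation genes it was 3 without control replicate 1, control replicate 2 or unloading replicate 1. For the matricellular genes it was 0 without control replicate 3 and 1 without control replicate 2, unloading replicate 1 or reloading replicate 2, but 10 with no low-count filter and 5 with a replicate block. At an adjusted p under 0.01 overshoot was 2, 2 and 0 in the basement membrane, maturation and matricellular lists. The number of members above control was 5 of 16 basement membrane genes, 9 of 21 matricellular genes and 7 of 18 maturation genes without reloading replicate 2, and 7 of the maturation genes without control replicate 3. Among the named genes Col15a1 lost its reloading call without reloading replicate 2, Sparc without that library or control replicate 3, Mfap4 without either or control replicate 1, and Hspg2 without reloading replicates 1 or 2 or control replicate 3 (adjusted p up to 0.0992).

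Other matrix genes rose after reloading without a call at unloading. Of 21 matricellular genes 14 were higher than control and 0 lower, most of them without a call at unloading. Postn, periostin, stood at 19.4, 22.9 and 30.9 CPM in the controls, 11.6, 19.4 and 35 CPM after unloading and 271, 354 and 268 CPM after reloading (3.61 ± 0.32, adjusted p = 2e-06). Cthrc1, a secreted collagen-repeat protein, rose from 0.596, 0.569 and 0.293 CPM to 6.73, 8.17 and 6.02 CPM, by 3.83 ± 0.29. Tnc, tenascin C, rose by 2.52 ± 0.30 and Lox, the lysyl oxidase that crosslinks collagen, by 1.89 ± 0.22. All 4 genes had reloaded libraries wholly above the controls. Inhibitors of matrix proteases went in both directions. Timp1 rose from 0.745, 0.743 and 0.585 CPM to 10.4, 13.2 and 9.75 CPM (adjusted p = 1.38e-06), whereas Timp4 fell from 21.3, 24.6 and 29.7 CPM to 11.9, 5.93 and 8.12 CPM (-1.55 ± 0.33, adjusted p = 0.00234). Adamts4, an aggrecanase, rose by 4.69 ± 0.81.

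Most markers of the cells that make matrix were not called. Of 14 fibro-adipogenic progenitor markers 3 were higher than control and 1 lower, with a median of 0.06 log2. Their summed level was 1870.5 to 2114 CPM in the controls and 1339 to 1568 CPM after reloading, most of it from Gsn, gelsolin, which fell by 0.80 and is also made by other cells. Pdgfra, the receptor that defines these cells, stood at 43.3, 44.8 and 49.4 CPM and 39, 45.5 and 42.4 CPM, with overlapping ranges (-0.12 ± 0.11, adjusted p = 0.485). No marker of the list was at 0 in these groups. Endothelial cells also make basement membrane: of 16 endothelial markers 7 were higher and 0 lower (12 higher with total counts, 3 without control replicate 3 or reloading replicate 2), and their sum was 579 to 615 CPM in the controls and 693 to 776 CPM after reloading. In a whole muscle, fewer cells of a type and less RNA per cell cannot be told apart, and the part of cell numbers in the matrix changes was not tested.

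Most oxidative genes that had fallen stayed low. Of 48 nuclear oxidative phosphorylation genes 10 had fallen at unloading. After reloading 7 of these stayed low, 1 was back, 2 could not be placed and 0 overshot. Among all genes lowered by unloading 26.0% stayed low. In all 29 of the 48 were lower than control and 0 higher, with a median of -0.33 log2. Sdhb, a subunit of succinate dehydrogenase, stood at 408, 407 and 376 CPM in the controls, 241, 287 and 267 CPM after unloading and 305, 289.9 and 287 CPM after reloading. Reloaded values lay below every control and overlapped with the unloaded ones, and the change from control was -0.43 ± 0.09 (adjusted p = 0.00292). Uqcrc1, a core protein of complex III, went from 610.2, 621 and 569.8 CPM to 419.9, 492 and 463 CPM and then to 458, 446 and 445 CPM (-0.42 ± 0.09, adjusted p = 0.00284). Ndufb5, of complex I, was the member back at baseline, at 0.02.

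Genes of the fuel pathways behind the respiratory chain were low as well. Of 27 genes of the tricarboxylic acid cycle and fatty acid oxidation 11 had fallen at unloading, of which 9 stayed low, 2 could not be placed and 0 overshot. After reloading 19 of the 27 were lower than control and 0 higher, with a median of -0.42 log2. Idh2, the mitochondrial NADP-dependent isocitrate dehydrogenase, fell from 314, 401 and 329 CPM in the controls to 162, 243 and 167 CPM after unloading and 140.0, 167 and 119 CPM after reloading. The reloaded libraries lay wholly below the controls, at -1.29 ± 0.21 (adjusted p = 0.000261), and overlapped with the unloaded ones. Cpt2, which readies fatty acids for oxidation in mitochondria, stood at -0.62 ± 0.14 after unloading and -0.60 ± 0.14 after reloading. Hadhb, a subunit of the enzyme complex that shortens fatty acids, was -0.55 ± 0.12 and -0.48 ± 0.12.

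Of the 29 lower phosphorylation genes 22 had not been called at unloading, when 5.74% of all tested genes were called. The list as a whole was already low then. Its median was -0.27 log2 at unloading and -0.08 for reloading minus unloading, and its summed level was 17913 to 18778 CPM in the controls, 14649 to 16214 CPM after unloading and 14632 to 15105 CPM after reloading. Cox8b, a muscle subunit of cytochrome oxidase, stood at 181, 172 and 154 CPM, 148, 155 and 145 CPM and 94.3, 98.8 and 92.4 CPM, and fell by 0.82 log2 (adjusted p = 1.26e-05). Outside both lists 3 mitochondrial genes that had fallen at unloading moved further down by the test: Adhfe1, an alcohol dehydrogenase, to -1.24 ± 0.11, Ivd, an enzyme of leucine breakdown, to -0.84 ± 0.11, and Ndufc1, of complex I, to -0.71 ± 0.09.

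The oxidative counts depended on the scale and on single libraries. With total counts 12 of the 48 phosphorylation genes and 9 of the 27 fuel genes were lower than control, and 3 and 4 of them stayed displaced; the medians were -0.19 and -0.28. Without control replicate 1 the lower calls were 17 and 12, and without control replicate 2 they were 18 and 10. Leaving out reloading replicate 2 gave 16 phosphorylation genes and leaving out reloading replicate 3 gave 19. The 7 phosphorylation genes that stayed displaced were 2 without control replicate 1 or control replicate 2, 3 without unloading replicate 1 or reloading replicate 2, and 4 without reloading replicate 3. The 9 fuel genes were 3 without control replicate 1 or unloading replicate 3, 2 without control replicate 2 and 0 without unloading replicate 1. Other settings moved the counts either way: with no low-count filter 15 phosphorylation and 14 fuel genes stayed displaced, 14 fuel genes did so in the fit of the 9 flox libraries alone, and at an adjusted p under 0.01 it was 1 of each. Both the TMM factor and the muscle fibre list moved with these genes, and so did the mitochondrial share of counts, as given above; their part in the result was not tested.

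Some glycogen and autophagy genes raised by unloading went past baseline in the other direction. Phka1, the regulatory subunit of phosphorylase kinase, stood at 968, 1019 and 1356 CPM in the controls, 1506, 1546 and 1705 CPM after unloading and 642, 663 and 754 CPM after reloading. None of the 3 ranges overlapped, and the change of 0.51 ± 0.12 at unloading became -0.70 ± 0.12 at reloading (adjusted p = 0.000412). Of 25 genes of glycolysis, glycogen and glucose transport 6 were lower than control and 3 higher (1 higher without reloading replicate 2), with Pygm, muscle glycogen phosphorylase, among the lower at -0.70 ± 0.12. Actn3, the alpha-actinin of fast fibres, overshot downwards too, from 0.50 ± 0.12 to -0.65 ± 0.12. Prima1, which anchors acetylcholinesterase, was 1.23 ± 0.28 and then -1.45 ± 0.31. For Odf3l2, with changes of 2.54 ± 0.41 and -1.53 ± 0.45, the reloading call was lost when any of 4 libraries was left out (adjusted p up to 0.104).

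Of 17 autophagy and mitophagy genes 11 were lower than control after reloading and 0 higher, with a median of -0.31 log2. Pink1, a kinase that marks damaged mitochondria, stood at 879.9, 919.9 and 893 CPM in the controls, 1036, 1016 and 905 CPM after unloading and 486, 424 and 457 CPM after reloading (-0.98 ± 0.09, adjusted p = 2.94e-06). Map1lc3a, an autophagosome protein, had been raised to 170.5, 183 and 165 CPM from 97.1, 109 and 92.5 CPM and came down to 89.3, 75.3 and 78.2 CPM, below every control. Bnip3, a mitophagy receptor, also overshot, at -0.42, and Ulk1, the kinase that starts autophagy, fell by 0.79. With total counts 5 of the 17 were lower, and neither Map1lc3a nor Bnip3 passed (adjusted p = 0.268 and 0.0612); Map1lc3a also lost its call without control replicate 2, reloading replicate 2 or reloading replicate 3. Among 18 atrophy genes 6 were lower and 0 higher. Fbxo32, the ubiquitin ligase atrogin-1, fell from 308, 361 and 410.1 CPM to 156, 154 and 106 CPM (-1.38 ± 0.24, adjusted p = 0.00049), whereas the ligase Trim63, MuRF1, stood at 211, 203 and 213 CPM and 213, 211 and 167 CPM with overlapping ranges (-0.08 ± 0.08). Klf15, a glucocorticoid-induced factor, fell by 1.20 and the related Klf9, which overshot, stood at -0.61. Of 31 proteasome subunit genes 3 were called higher (7 with total counts), and each of the 3 lost its call when single libraries were left out.

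Some genes stayed high, or went on rising. Sln, sarcolipin, which uncouples the calcium pump, stood at 1.24, 2.67 and 1.58 CPM in the controls, 4.16, 3.62 and 6.17 CPM after unloading and 4.75, 8.56 and 5.98 CPM after reloading (1.82 ± 0.35, adjusted p = 0.00119). Chrnb1, an acetylcholine receptor subunit, was 0.85 ± 0.14 and then 1.04 ± 0.14. Mt1, a metallothionein that binds zinc, climbed from 5.3, 5.12 and 3.56 CPM to 8.15, 11.3 and 10.5 CPM and then 22.6, 21.2 and 14.4 CPM, with no overlap between groups. Close copies make the metallothionein counts uncertain. Its change grew from 1.09 ± 0.23 to 2.05 ± 0.23 (reloading minus unloading 0.96 ± 0.22, adjusted p = 0.00299). Tnnt2, the troponin T of heart and developing muscle, went from 2.04, 2.76 and 2.23 CPM through 3.7, 2.92 and 5.11 CPM to 6.71, 7.11 and 6.65 CPM. Itga7, the integrin that ties fibres to laminin, rose from 0.60 ± 0.12 to 1.28 ± 0.12, and Scn3b, a sodium channel subunit, from 1.67 ± 0.27 to 2.65 ± 0.27.

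On the low side Mycn, Oxtr and the tendon genes Cilp2 and Chad showed no return by the test. Mycn, a proto-oncogene transcription factor, stood at 4.39, 4.81 and 2.99 CPM, 0.576, 1.24 and 0.654 CPM and 1.33, 1.72 and 0.920 CPM (-1.62 ± 0.27, adjusted p = 0.000323). Cilp2, a matrix protein of tendon and cartilage, went from 18.5, 40.7 and 25.3 CPM to 12.5, 7.88 and 6.33 CPM and 11.5, 12.6 and 6.88 CPM. The reloaded range lay below the controls (-1.45 ± 0.38 log2), but the call was lost without control replicate 2 (adjusted p = 0.0697). Chad, chondroadherin, was -1.22 ± 0.32, a call lost without control replicate 2 or reloading replicate 1. Scx, the tendon transcription factor scleraxis, rose by 1.16 ± 0.30 in the same list, a call lost without reloading replicate 1 (adjusted p = 0.0523). Of 11 tendon markers 3 were lower and 2 higher, and without control replicate 2 the lower count was 1, without control replicate 1 it was 6. The summed tendon list was 600.2 to 1045 CPM in the controls and 600.2 to 922 CPM after reloading, so this sum differed between libraries of the same group. Whether the amount of tendon differed, and its part in the matrix results, was not tested.

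Most genes called after reloading had not been called at unloading, which does not show that unloading left them unchanged. Of the 4035 called genes 3643 were not called at unloading, 2041 higher and 1602 lower. Over all 17833 tested genes 1024 (5.74%) were called at unloading, so lacking that call is not particular to the genes called after reloading. For 2317 of the 3643 the 95% interval of the unloading change lay within 1.5-fold of control. The largest rises with a mean of at least 1 CPM were those of Sprr1a, given below after the strain genes, and Slc6a19, a neutral amino acid transporter. Slc6a19 went from 0.0426, 0.0875 and 0.0450 CPM in the controls and 0.123, 0.434 and 0.204 CPM after unloading to 6.71, 8.6 and 5.86 CPM after reloading (6.86 ± 0.65, adjusted p = 2.94e-06). All 24 tested genes of mitosis and cytokinesis were higher than control, with a median of 3.27 log2, and Tpx2, a spindle factor, was the member called higher at unloading as well. In all 24 the reloaded CPM range lay above the control range. Over all tested genes the ranges were apart, above or below, in 39.9%. Mki67, the proliferation marker Ki-67, stood at 1.47, 1.44 and 0.900 CPM in the controls, 0.453, 0.434 and 2.43 CPM after unloading and 29.3, 26.3 and 20.2 CPM after reloading (4.31 ± 0.42, adjusted p = 3.91e-06). Cdc20, an activator of the anaphase-promoting complex, rose from 0.511, 0.131 and 0 CPM to 4.65, 3.76 and 2.82 CPM, by 4.09 ± 0.56. Ccnb1, cyclin B1, rose by 4.69 ± 0.51 and Cenpf, a kinetochore protein, by 4.82 ± 0.48. Of 27 DNA replication genes 18 were higher and 1 lower. Uhrf1, a DNA methylation maintenance factor in that list, had fallen at unloading and overshot, from 1.62, 0.962 and 0.653 CPM and 0.288, 0.496 and 0.511 CPM to 6.92, 6.48 and 5.75 CPM.

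The promoters of the mitosis genes were inspected because the whole list moved together. RefSeq's table for GRCm38.p6 held the 250 bases before the start of 20 of the 24 genes. A CCAAT box (CCAAT on either strand) was in 17 of the 20 and in 37.5% of all 27025 genes with a promoter in the table. The cell cycle homology region, taken as TTTGAA or TTCGAA on either strand, was in 9 of the 20 and in 19.6% of all. A match describes these letters and is not shown to be a binding site. The promoters of Mki67 (chr7:135716380-135716629, minus strand) and Cdc20 (chr4:118437344-118437593, minus strand), the 2 members with the largest rises among those holding both elements, are printed with the elements in capitals, to show how they sit near the start.
Mki67: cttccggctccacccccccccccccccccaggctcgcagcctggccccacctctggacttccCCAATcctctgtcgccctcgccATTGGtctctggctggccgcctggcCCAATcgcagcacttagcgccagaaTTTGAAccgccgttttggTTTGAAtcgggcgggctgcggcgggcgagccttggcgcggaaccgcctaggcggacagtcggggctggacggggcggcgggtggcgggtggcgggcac
Cdc20: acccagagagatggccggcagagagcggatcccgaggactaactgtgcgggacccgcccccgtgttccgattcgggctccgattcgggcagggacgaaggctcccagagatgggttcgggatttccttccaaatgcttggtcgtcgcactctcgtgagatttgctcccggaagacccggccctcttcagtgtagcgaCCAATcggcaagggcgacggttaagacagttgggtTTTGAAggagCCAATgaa

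Genes that answer mechanical strain in the fibre rose after reloading without a call at unloading. Of 14 sarcomere strain and repair genes 12 were higher than control and 0 lower. Ankrd1, a stretch-responsive ankyrin repeat protein of the sarcomere, stood at 10.0, 9.34 and 5.67 CPM in the controls, 10.1, 9.45 and 20.4 CPM after unloading and 146, 133 and 102 CPM after reloading (3.93 ± 0.41, adjusted p = 6.19e-06). Csrp3, the muscle LIM protein, rose from 178, 122 and 41.9 CPM to 936, 953 and 707 CPM although its controls were spread widely (2.93 ± 0.62, adjusted p = 0.00226). Flnc, filamin C, which patches damaged sarcomeres, rose by 1.11 ± 0.27 and Cryab, a small heat shock protein of the Z-disc, by 1.94 ± 0.27. Outside this list Sprr1a, a small proline-rich protein, had 0 counts in all 3 control libraries and 1.2, 1.13 and 1.3 CPM after reloading. That was at least 55.4-fold higher than a limit of 3 counts over the control group.

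Some developmental and fusion genes rose. Of 8 developmental and perinatal sarcomere genes 4 were higher than control and 0 lower. Among 18 myogenic regulators and fusion genes 5 were higher, 1 was lower and 12 were not called, with 3 higher without control replicate 1, reloading replicate 1 or reloading replicate 2. Myh3, embryonic myosin heavy chain, stood at 6.58, 7.87 and 4.19 CPM in the controls, 2.18, 13.4 and 5.93 CPM after unloading and 46.6, 50.8 and 36.1 CPM after reloading (2.84 ± 0.45, adjusted p = 0.000236). Myog, myogenin, which drives differentiation of myoblasts, rose from 4.37, 4.7 and 5.72 CPM to 29.5, 23.6 and 17.9 CPM (2.26 ± 0.27), and Mymk, the fusion protein myomaker, from 0.213, 0.306 and 0.0450 CPM to 2.49, 3.24 and 2.61 CPM (3.86 ± 0.48). Pax7, which marks satellite cells, the stem cells of muscle, stood at 5.81, 4.81 and 2.93 CPM and 3, 4.43 and 4.52 CPM with overlapping ranges (-0.18 ± 0.21, adjusted p = 0.59). Of 12 satellite cell markers 1, Itga7, was higher, 2 were lower and 9 were not called. The lower members were Chodl and Myf5, and Myf5 lost its call without control replicate 3, reloading replicate 1 or reloading replicate 3. Of 20 acetylcholine receptor and denervation genes 8 were higher and 2 lower, among them Chrng, the fetal receptor subunit, at 2.76 ± 0.57, and Runx1, a transcription factor, at 1.51 ± 0.21. Dach2, a repressor in the denervation response, fell by 1.82. Of the adult myosins Myh4, the fastest, was at -0.22 ± 0.12 and Myh7, the slow one, at 0.37 ± 0.33, neither passing the test. Atp2a1, the calcium pump of fast fibres, fell from 24771, 27639 and 24208 CPM to 13373, 15524 and 18028 CPM (-0.71 ± 0.14, adjusted p = 0.00152).

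**Figure D4:**
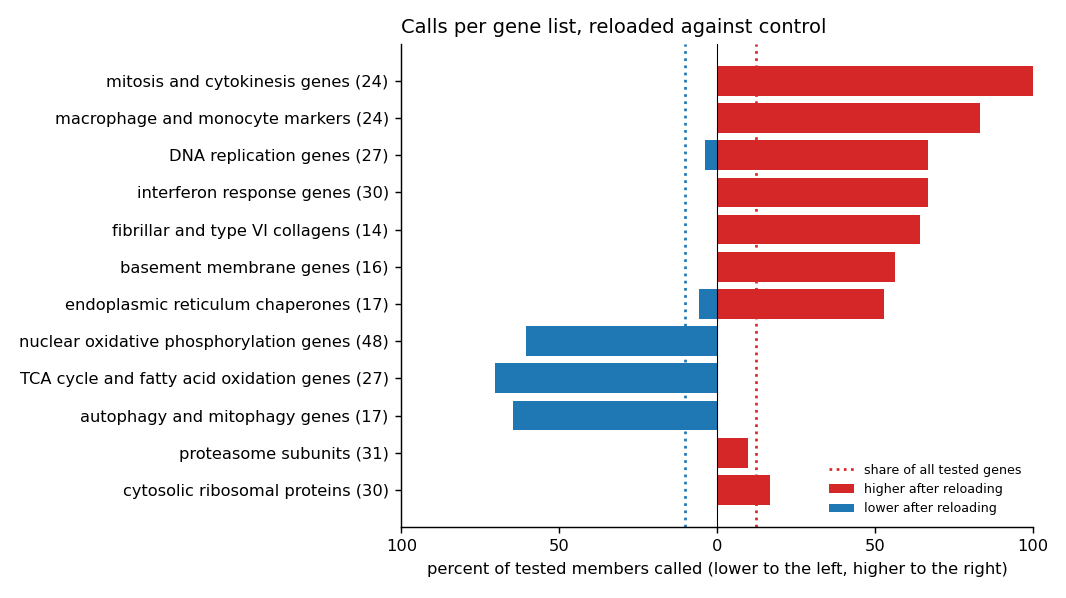
Share of the tested members of 12 gene lists (number in brackets) called higher (bars to the right) or lower (bars to the left) in reloaded against control muscle, in percent. Dotted lines mark the shares among all tested genes, 12.3% higher and 10.3% lower. Mitosis genes stand at 24 of 24 higher and oxidative phosphorylation genes at 29 of 48 lower, while proteasome and ribosomal protein genes lie near the dotted line.

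Macrophage genes were high in reloaded muscle. Of 24 macrophage and monocyte markers 20 were higher than control and 0 lower, and their sum was 208 to 222 CPM in the controls, 198 to 239 CPM after unloading and 402 to 592 CPM after reloading. Cd68, a lysosomal glycoprotein of macrophages, stood at 3.47, 4.31 and 3.78 CPM, 3.56, 3.64 and 4.31 CPM and 35.8, 39 and 31.2 CPM (3.20 ± 0.28, adjusted p = 2e-06). Cx3cr1, the fractalkine receptor, rose by 2.64 ± 0.37 and Trem2, a lipid receptor of phagocytes, by 2.14 ± 0.44. Gpnmb, another phagocyte glycoprotein, was the exception that had risen at unloading and was back at -0.10 ± 0.19. Of 16 chemokine and receptor genes 11 were higher and 1, Ccl11, lower, a call lost without any of 4 libraries or with total counts (adjusted p = 0.183), and Ccl8, a monocyte attractant, rose from 0.256, 0.262 and 0.0450 CPM to 1.26, 3.35 and 2.07 CPM. Among complement genes 9 of 19 were higher, and 5 without reloading replicate 2. Other leukocytes gave fewer calls. The 8 T, NK and B cell markers had a median change of -0.04 log2 and gave no call in edgeR's or DESeq2's test. Of 5 neutrophil markers Csf3r alone was called higher, a call lost without any of 4 libraries; Ly6g, Cxcr2 and Ngp were too low to be tested.

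Of 30 interferon response genes 20 were higher than control and 0 lower. Isg15, a ubiquitin-like antiviral protein, stood at 1.06, 0.765 and 0.720 CPM in the controls, 0.453, 0.993 and 0.613 CPM after unloading and 3.16, 3.3 and 2.41 CPM after reloading (1.79 ± 0.27, adjusted p = 0.000136). Mx1, an antiviral GTPase, rose by 1.98 ± 0.38 and Ifitm3, which had fallen at unloading, overshot to 0.51. The interferon-stimulated response element, taken as TTTC, any 2 bases and TTTC on either strand, was in the 250-base promoters of 11 of the 23 list genes in the table and of 3.46% of all genes. Of those 11 genes Isg15, Oas1a, Ifit1, Rsad2, Stat2 and Bst2 were called higher, and Cxcl10, Gbp3, Ifit3, Gbp2 and Gbp7, at 1.14, 0.37, 0.31, 0.02 and -0.07, did not pass. Rsad2 lost its call without any of 4 libraries and Bst2 without control replicate 2 or reloading replicate 1. The Isg15 promoter (chr4:156200819-156201068, minus strand) is printed because that gene rose the most of the 6; its 3 overlapping matches lie on the opposite strand, so their fixed letters, in capitals, read GAAA.
Isg15: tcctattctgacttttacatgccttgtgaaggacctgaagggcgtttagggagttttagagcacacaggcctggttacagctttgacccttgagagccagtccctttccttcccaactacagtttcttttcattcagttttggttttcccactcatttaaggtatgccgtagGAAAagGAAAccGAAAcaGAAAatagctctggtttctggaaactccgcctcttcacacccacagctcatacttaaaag

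Chaperones rose in 2 compartments. Of 16 cytosolic heat shock chaperones 9 were higher than control and 0 lower; 4 had fallen at unloading, of which Hspa8, Hsph1 and Hspe1 overshot and Hspd1 was back. Hspa8, the constitutive HSP70, went from 775, 738 and 737 CPM to 402, 505 and 578 CPM and then to 1067, 1199 and 955 CPM (0.52 ± 0.14, adjusted p = 0.0135). The overshoot count of 3 was 0 without control replicate 1, control replicate 2, unloading replicate 1 or reloading replicate 2, and 1 without control replicate 3. The reloading call itself was lost for Hspa8 without reloading replicate 2, for Hsph1 without that library or control replicates 2 or 3, and for Hspe1 without any of 4 libraries (adjusted p up to 0.245). Hspb7, a small heat shock protein of muscle, rose without a call at unloading, by 2.05 ± 0.37. Of 17 endoplasmic reticulum chaperones 9 were higher and 1 lower, and 5 were higher without reloading replicate 2. Hsp90b1, the reticulum's HSP90, stood at 101, 101 and 89.8 CPM, 82.8, 79.1 and 92.5 CPM and 150.0, 165 and 132 CPM (0.61 ± 0.11, adjusted p = 0.000827), while Herpud1, a degradation factor of the same compartment, fell by 0.75. The endoplasmic reticulum stress element, CCAAT, any 9 bases and CCACG on either strand, was in the promoters of 7 of the 15 list genes in the table and of 0.13% of all genes. It contains a CCAAT box, which 14 of the 15 held. Of the 7 genes with the element Pdia6, Hsp90b1, Creld2, Canx and Calr were called higher in edgeR's test, Calr at an adjusted p of 0.0491. Hspa5 and Dnajc3, at 0.37 and 0.16, did not pass (adjusted p = 0.0948 and 0.18). The Hsp90b1 promoter (chr10:86705445-86705694, minus strand) is printed because it holds 2 matches, 1 on each strand, whose fixed letters are in capitals.
Hsp90b1: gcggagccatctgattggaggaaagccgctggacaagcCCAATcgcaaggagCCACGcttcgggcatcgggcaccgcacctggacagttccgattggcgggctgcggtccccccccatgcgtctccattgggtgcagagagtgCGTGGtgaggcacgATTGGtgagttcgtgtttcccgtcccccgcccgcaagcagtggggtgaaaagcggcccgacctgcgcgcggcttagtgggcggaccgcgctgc

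Several of the largest falls after reloading were in genes without a call at unloading. Chac1, a glutathione-degrading enzyme, stood at 35.6, 38.5 and 51.4 CPM in the controls, 89.5, 85.8 and 39.8 CPM after unloading and 2.2, 5 and 3.1 CPM after reloading. The reloaded libraries lay far below all others, at -3.60 ± 0.53 (adjusted p = 0.000125). Inmt, a methyltransferase, fell from 11.2, 17.2 and 20.7 CPM in the controls to 2.63, 2.76 and 5.81 CPM after reloading (-2.13 ± 0.38). After unloading it stood above every control, at 39.2, 35.4 and 35.6 CPM (1.16 ± 0.35, adjusted p = 0.0603 in edgeR's test). Gpr137c, an orphan membrane protein, fell from 5.64, 6.21 and 7.18 CPM to 1.31, 1.78 and 1.97 CPM (-1.91 ± 0.23). Its unloaded values of 3.64, 3.64 and 4.39 CPM already lay below every control (-0.70 ± 0.22, adjusted p = 0.069). Htra4, a secreted serine protease, fell by 2.23. Mrgprg, Chrna2 and Cish, at -2.59, -2.31 and -2.25, each lost their call when single libraries were left out, with adjusted p up to 0.111, 0.149 and 0.0799.

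The same change in the libraries titled mKO differed from that in flox muscle for 93 of the 17833 genes (0.522%), with 4 changing more upwards in mKO (0.0224%) and 89 less (0.499%).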

How the data were processed

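The deposited file holds raw read counts per gene for 18 libraries. Per the submitters' processing notes, STAR 2.7.3a, featureCounts 2.0.3 and the GRCm38.p6 build were used, while the file header names featureCounts 1.6.4 and a release 94 annotation. Strandedness and the handling of pairs and multiply mapped reads cannot be read from it, so antisense, overlapping and near-identical genes (globins, histones, metallothioneins, MHC genes) are uncertain. Columns were matched to samples by their descriptions, and the authors' 4 deposited tables of comparisons were not used.

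Of 54532 genes 32258 had a count and 17833 passed edgeR's filterByExpr. All 18 libraries in 6 groups were fitted with edgeR 4.0.16 (R 4.3.3, limma 3.58.1), TMM scaling and the quasi-likelihood test, with 12 residual degrees of freedom, and p-values were adjusted over all tested genes by the Benjamini-Hochberg method. CPM uses the TMM-scaled library sizes. The fit was also run on simulated data with the same spread for every gene and planted changes of equal size. That setting is simpler than these libraries, so it does not show how well the classes hold here.

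By rule the text named Zfp697, the 10 largest rises and 10 largest falls with a mean of at least 1 CPM and ranges apart, the 4 largest changes in each direction of each class, and up to 3 called members of each list; it prints fewer, and some named items are not reported here. Members and lists were chosen with earlier results of these data known. Outside the rule, and chosen after their values were seen, are Acta1, Clcn1, Cacng1, Kcnc4, Igf1r, Rora, Rpl4, P4ha1, Slc2a3, Fkbp5, Col6a3, Col5a1, Col6a1, Col6a2, Col1a1, Col1a2, Col15a1, Nid2, Hspg2, Serpinh1, Sparc, Mfap4, Fn1, Timp4, Pdgfra, Sdhb, Uqcrc1, Ndufb5, Hadhb, Map1lc3a, Bnip3, Trim63, Klf9, Chrnb1, Tpx2, Cdc20, Flnc, Pax7, Runx1, Dach2, Myh4, Trem2, Gpnmb, Ccl11, Ifitm3, the genes named for a response element, Hspa8, Hsph1, Hspe1, Hspd1 and Hsp90b1.

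Alternatives were other scalings, other low-count filters, DESeq2 1.42.0, fits on fewer libraries, a replicate block, other thresholds, and leaving out each library. Promoters of 250 bases come from RefSeq's table for GRCm38.p6, and motifs were searched as exact letters on both strands.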

Additional observations from a re-analysis of the deposited data

Results flagged for a closer look

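The same change was also measured between the reloaded and control libraries titled mKO, the muscle knockout of Zfp697, and the difference of the 2 changes (mKO minus flox, log2) was tested in the same edgeR fit. Over all tested genes 93 differed (0.522%), 4 with a higher and 89 with a lower change in mKO. Of the genes reported here 22 differed, each with the lower change in mKO (adjusted p = 0.0129 to 0.04997). Most of the reported genes were named for their change in flox muscle, which is subtracted in this difference. Their shared direction is therefore partly fixed by that choice and is not a separate result.

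Genes of cell division formed the longest group: Cep55 (-3.35), Cenpf (-3.73), Ccnb1 (-3.67), Ncapg (-3.42), Mki67 (-2.86), Tpx2 (-2.09), Gins2 (-2.43) and Rrm2 (-1.58). Mki67 changed by 4.31 log2 in flox muscle and 1.45 in mKO. Matrix and protease genes were Postn (-2.54), Cthrc1 (-2.48), Timp1 (-2.09), Adam12 (-1.84), Col5a2 (-1.25) and Fstl1 (-0.90). Postn had a mean of 24.4 CPM in flox controls and 297.9 CPM after reloading, and 33.0 and 69.3 CPM in mKO. Among immune genes were Ccl8 (-3.57), Ctss (-1.59), C1qb (-1.38), Isg15 (-1.83) and Slfn9 (-1.51). Ctss, the lysosomal protease cathepsin S, changed by 1.63 in flox muscle and 0.04 in mKO. Genes of fibres and vessels were Tnnt2 (-1.35) and Aplnr (-0.97), and Nxpe5, a gene of little known function, differed by -4.33.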

How the results depend on the processing

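Scaling by total counts gave 3652 genes higher and 887 lower after reloading. With no low-count filter 365 genes overshot and 460 stayed displaced, and with DESeq2 288 overshot and 419 were not placed. At an adjusted p under 0.01 there were 2309 calls (1320 higher, 989 lower), 102 genes back, 43 overshooting, 42 staying, 84 unplaced and 2224 called at reloading alone, 1391 of them with an unloading interval inside the margin. A narrower margin for baseline gave 209 back, 423 unplaced and 957 inside the margin. Counting only unloading changes of at least 1.5-fold left 87 back, 71 overshooting, 84 staying and 166 unplaced. Leaving out single flox libraries gave 2758 to 4088 calls, 1487 to 2205 higher and 1271 to 1883 lower, 125 to 324 back, 70 to 161 overshooting, 82 to 173 staying, 74 to 329 unplaced, and 2495 to 3826 called at reloading alone, 1594 to 2243 of them inside the margin. The cause of these shifts was not tested.

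Same-numbered control and reloaded libraries deviated together only weakly, with correlations of 0.096, 0.0092 and 0.13. Those with different numbers had correlations of -0.109 to 0.0112. What a shared number stands for was not tested. With a replicate block 4225 genes were called, 406 were back, 224 overshot and 236 stayed displaced. Of 184 named genes that were called, 144 kept their call without each library and 142 in every setting; 0 changed sign. A single gene near 0 CPM, such as Sprr1a, is limited by its counts.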

Other observations

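Genes of acute stress signalling also rose. Of 21 genes of the AP-1, EGR and interleukin-6 families 9 were higher than control after reloading and 1 lower. Atf3, a stress-induced repressor, stood at 6.03, 4.81 and 3.38 CPM in the controls, 3.01, 4.8 and 5.33 CPM after unloading and 49, 37.4 and 19.4 CPM after reloading (2.89 ± 0.60, adjusted p = 0.00184 in edgeR's test). Members of the ATF4 stress response went in both directions. Psat1, of serine synthesis, rose from 2.88, 3.85 and 2.18 CPM to 10.5, 11 and 10.7 CPM (1.85 ± 0.24) and Mthfd2, a mitochondrial folate enzyme, from 3.98, 4.05 and 4.1 CPM to 8.38, 10.7 and 7.2 CPM (1.12 ± 0.17), whereas Chac1, of the same list, was among the largest falls. In all 4 of the 15 were higher and 2 lower.

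Many lysosomal genes were higher while many autophagy genes were lower. Of 26 lysosomal hydrolase and membrane genes, a list that macrophages share, 14 were higher and 2 lower, against 12.3% and 10.3% of all tested genes. Their summed levels overlapped, at 2526 to 2655 CPM in the controls and 2378 to 2848 CPM after reloading. Of 13 metallothioneins and zinc transporters 7 were higher and 0 lower, and 4 without control replicate 3 or reloading replicate 1 and 3 without reloading replicate 2. Rpl3, a ribosomal protein whose muscle paralogue is Rpl3l, rose from 66.4, 67.2 and 58.4 CPM to 150.2, 141 and 127 CPM (1.12 ± 0.12, adjusted p = 1.08e-05), although 5 of 30 ribosomal protein genes were called higher at all, and 18 with total counts. Of 21 ribosome biogenesis genes 1 was lower and 0 higher, a call lost without single libraries. Clock genes gave few calls against control: 1 of 17 (5.88%), Cry1, was lower, a call lost without single libraries, where 10.3% of all tested genes were lower. The list's median was -0.36 log2. Its summed level was 1529.7 to 1564 CPM in the controls, 1833 to 1881 CPM after unloading and 1129 to 1446 CPM after reloading. Of the 17 genes 11 were lower than after unloading, where 14.9% of all tested genes were.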
